A study of Homo sapiens with 4 samples.

Results

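The 9 genes described here build and load the MHC class I complex: the heavy chains *HLA-B*, *HLA-C* and *HLA-E*, the light chain *B2M*, the peptide transporter subunits *TAP1* and *TAP2*, the loading factor *TAPBP*, and the inducible proteasome subunits *PSMB8* and *PSMB9*. They were chosen by symbol, and all 9 were among the 32991 gene identifiers that the count tables of all libraries list, out of 34241 listed in any table. The cells were A375, an established human melanoma line with the BRAF V600E mutation, profiled by droplet single-cell RNA sequencing (10x Genomics Chromium, 10000 cells loaded per channel). S was the untreated, drug-sensitive culture. RV had been made resistant to the BRAF inhibitor vemurafenib, RVC to vemurafenib with the MEK inhibitor cobimetinib, and RVT to vemurafenib with the MEK inhibitor trametinib, each by 10 to 14 days in the drugs at a fraction of the IC50. The inhibitors were taken away 24 h before capture, so that all 4 cultures were free of drug when measured. Every condition is 1 culture of 1 cell line and 1 library, which leaves no replicate, no test between conditions and no estimate of the spread between cultures.

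MHC class I molecules show short peptides from inside the cell to CD8+ T cells and natural killer cells. Proteasomes cut proteins into peptides, the TAP transporter moves them into the endoplasmic reticulum, and tapasin (encoded by *TAPBP*) holds an empty heavy chain with beta-2-microglobulin at the transporter until a peptide binds. Interferon and NF-kB signalling are known to raise transcription of these genes, and loss of class I presentation is a known route by which melanoma escapes T cells.

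After filtering, 6334 cells were left of S, 4177 of RV, 7623 of RVC and 8445 of RVT. Their depth differed, with 8807.5 UMIs (unique molecular identifiers, which count captured transcripts once) in the median S cell, 11553 in RV, 3959 in RVC and 2871 in RVT. S and RV were counted on one gene annotation and RVC and RVT on another, so that drug, annotation and depth cannot be told apart when RVC or RVT is compared with S. The log2 ratios of RVC and RVT to S also fell with the GC content of the transcript end (Spearman's rho across genes -0.34 and -0.40), unlike those of RV to S (0.006). Those of RVT to RVC fell with it more weakly (-0.17). The median cell had 3.15%, 3.06%, 3.58% and 5.77% mitochondrial UMIs in S, RV, RVC and RVT, and 2, 1, 478 and 580 barcodes were left out for more than 20%. Pairs of libraries shared 38 to 149 cell barcodes. Of 9 melanocyte and neural crest markers, *MLANA*, *TYR*, *DCT* and *PMEL* stood at 0 to 0.44 CPM (UMIs of a gene per 1000000 UMIs of its library) in all libraries, while *TYRP1* reached 4.76 in RVC. *MITF* was at 9.78, 20.2, 8.13 and 41.3 in S, RV, RVC and RVT, *SOX10* at 86.3, 39.9, 0 and 19.4, *S100B* at 32.8, 6.97, 0 and 0.276, and *S100A1* at 10.7, 2.88, 3.18 and 16.8. The 6 fibroblast markers summed to 2.56, 2.23, 167 and 43.1 CPM in the same order, and *COL3A1* made up most of the sum of RVC. The 9 leukocyte markers summed to 0.394 to 0.878 CPM, with *PTPRC* at 0 in every library, and the 5 endothelial markers to 0.669 to 1.40. The 5 keratinocyte markers summed to 238, 253, 80.7 and 116 CPM in S, RV, RVC and RVT, nearly all of it *KRT10*, with *KRT14* at 6.24, 11.3, 0 and 0.708.

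Of the 9 genes, 8 lie in the MHC region of chromosome 6 and *B2M* lies on chromosome 15 (GRCh38, GENCODE 29). The sequences just upstream of *HLA-B*, *HLA-C* and *B2M* are shown because these genes differ in what follows although the first and the second have similar stretches. RefSeq windows of 250 bases before a start (build GRCh38.p14) were found for 8 of the 9 genes, and *HLA-E* had none. Capitals mark 4 motifs on either strand: an interferon-response core (GAAANNGAA or GAANNGAAA), the NF-kB consensus, TGACG and CCAAT. No match of one motif overlapped a match of another. These first stretches end where the GENCODE 29 gene begins, and all run 5′ to 3′ on the strand of the gene.

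HLA-B (chr6:31357189-31357429, minus strand): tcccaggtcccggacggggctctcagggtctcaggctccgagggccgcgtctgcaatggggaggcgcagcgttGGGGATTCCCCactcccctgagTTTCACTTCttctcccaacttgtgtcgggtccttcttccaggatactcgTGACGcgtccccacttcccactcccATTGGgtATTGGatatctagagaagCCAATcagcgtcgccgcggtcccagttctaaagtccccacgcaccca
HLA-C (chr6:31272131-31272342, minus strand): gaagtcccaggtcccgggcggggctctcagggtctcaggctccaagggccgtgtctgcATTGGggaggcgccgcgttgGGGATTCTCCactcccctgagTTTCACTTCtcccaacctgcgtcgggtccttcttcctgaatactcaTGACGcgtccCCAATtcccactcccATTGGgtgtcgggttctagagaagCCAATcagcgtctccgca
B2M (chr15:44711267-44711486, plus strand): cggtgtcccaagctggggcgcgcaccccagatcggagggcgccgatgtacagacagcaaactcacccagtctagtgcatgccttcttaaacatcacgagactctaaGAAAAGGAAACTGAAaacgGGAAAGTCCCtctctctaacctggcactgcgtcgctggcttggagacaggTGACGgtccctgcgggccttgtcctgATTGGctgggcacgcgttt

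In all 3, a match to the NF-kB consensus, an interferon-response core, TGACG and CCAAT (or its reverse, ATTGG) occurred within these bases. The interferon-response core was also found for *TAP1*, *TAP2* and *TAPBP*, in all in 6 of the 8 genes, and in 12.4% of 35114 RefSeq windows of the same length. Their sites are printed with only the core in capitals. Those of *TAP1* and *TAPBP* lie inside the GENCODE 29 gene, since RefSeq places the starts elsewhere. The core of *TAP2* lies before the start of its GENCODE 29 gene, and only the last bases of its printed stretch reach into the gene.

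TAP1 (chr6:32853818-32853847, minus strand): ggcggccgctTTCGATTTCGCTTTCcccta
TAP2 (chr6:32838778-32838807, minus strand): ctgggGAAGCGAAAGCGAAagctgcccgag
TAPBP (chr6:33314079-33314108, minus strand): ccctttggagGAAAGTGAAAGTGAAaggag

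The windows of *PSMB8* (2 starts) and *PSMB9* held no match to the core. The NF-kB consensus was found for 5 of the 8 genes (*HLA-B*, *HLA-C*, *B2M*, *TAP1*, *TAPBP*) and in 9.96% of all windows, and TGACG together with CCAAT for 4 genes (*HLA-B*, *HLA-C*, *B2M*, *PSMB9*) and in 7.26%. These matches are letters in a window and were not tested for any use in these cells.

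Levels are sums over the filtered cells of a library, given as CPM. Ranges in brackets are exact 95% Poisson intervals for levels and exact conditional intervals for ratios, and both cover counting error only. Levels are compared between libraries within a gene, since how evenly the transcripts of different genes were captured and assigned is not known here. A median or count over genes covers the 6504 genes with a mean over the libraries of at least 10 CPM, which 8 of the 9 genes reached and *TAP2* did not.

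*HLA-B*, *B2M* and *PSMB8* were over 2-fold higher in both libraries of doubly resistant cells than in S, *PSMB9* was over 2-fold lower in RVT, and no gene was past 2-fold between S and RV. Summed over the 9 genes, the level was 1239 CPM for S (1230.0 to 1248), 1450.1 for RV (1440 to 1460.5), 3817 for RVC (3796 to 3838) and 4759 for RVT (4732 to 4785). *B2M* gave 71.5% and 72.3% of these UMIs in S and RV, and 81.1% and 80.2% in RVC and RVT. The sum therefore mostly follows one gene, and the 9 genes did not move alike, as the plot of their levels shows.

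**Figure D1:**
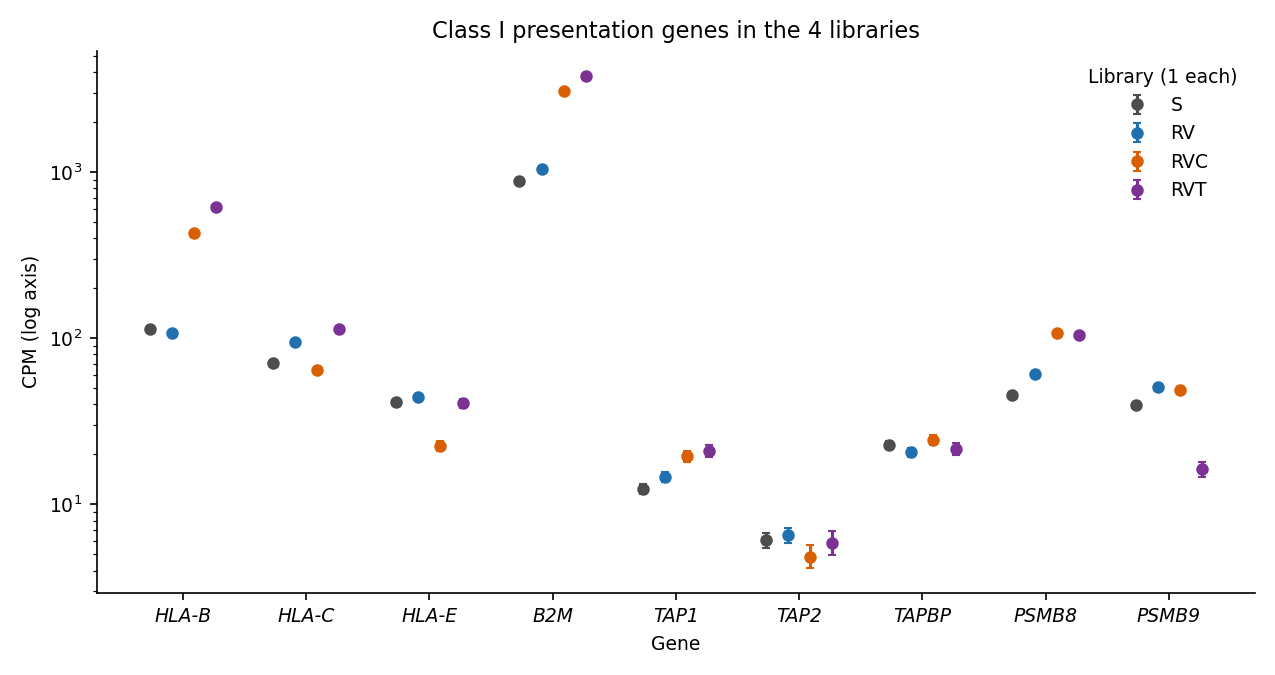
CPM (log axis) of the 9 class I presentation genes in the S, RV, RVC and RVT libraries, 1 point per library, with exact 95% Poisson intervals as bars. *HLA-B*, *B2M* and *PSMB8* stand higher in RVC and RVT than in S and RV, *PSMB9* stands lowest in RVT at 16.3 CPM, and *HLA-E* stands lowest in RVC at 22.4.

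*HLA-B*, a classical heavy chain that presents peptides to CD8+ T cells, was at 114 CPM for S (112 to 117), 108 for RV (105 to 111), 429.7 for RVC (423 to 437) and 619 for RVT (609.6 to 629). RVC and RVT thus lay far above S and RV, which lay close together. The ratio to S was 3.75 in RVC (3.65 to 3.87) and 5.41 in RVT (5.26 to 5.57), and 4.89% and 4.58% of the tested genes had a ratio as large or larger. In cells below and above the median mitochondrial share of their own library *HLA-B* was at 374 and 493 CPM in RVC and at 626 and 612 in RVT, against 102 and 128 in S. These medians differed between libraries, so that the groups are not matched, and the part of mitochondrial share in the ratios was not tested. The log2 ratios to S of 1.91 in RVC and 2.44 in RVT were 1.70 and 1.92 after TMM scaling. Among cells with 4000 to 8000 UMIs they were 1.59 and 2.04. *HLA-B* was also higher below than above the median UMI number, at 134 and 103 CPM in S, 469 and 413 in RVC and 659 and 599 in RVT.

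*HLA-C*, a classical heavy chain that is also a main ligand of inhibitory receptors on natural killer cells, did not follow *HLA-B*. It stood at 70.9 CPM for S (68.8 to 73.1), 95.7 for RV (93.1 to 98.4), 64.9 for RVC (62.2 to 67.7) and 114 for RVT (110.1 to 118). As summed, RV and RVT were the higher libraries, and S and RVC the lower. The log2 ratio of RVT to S was 0.69 as summed, 0.17 after TMM scaling and 0.34 among cells with 4000 to 8000 UMIs. For RV to S these values were 0.43, 0.39 and 0.54, so that the place of RVT depends on the scaling. The ratio was 1.35 for RV over S (1.30 to 1.41), 0.915 for RVC over S (0.869 to 0.965) and 1.76 for RVT over RVC (1.66 to 1.86).

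*HLA-E*, a heavy chain of little variety that presents signal peptides of other class I chains to the NKG2A receptor, was lowest in RVC. Its level was 41.3 CPM for S (39.7 to 43.0), 44.3 for RV (42.5 to 46.1), 22.4 for RVC (20.9 to 24.1) and 40.7 for RVT (38.3 to 43.3). S and RVT did not differ beyond their counting intervals as summed. The log2 ratio of RVT to S was -0.54 after TMM scaling and 0.33 when centred on genes of like GC content, so that it depends on the scaling. RVC was 1.84-fold lower than S (1.69 to 2.00). This log2 ratio was -0.88 as summed, -1.09 after TMM scaling and -0.64 when centred on genes of like GC content.

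Of the UMIs of the 3 heavy chains together, *HLA-B* took 50.5% for S (49.6 to 51.4), 43.5% for RV (42.6 to 44.3), 83.1% for RVC (82.5 to 83.7) and 80.0% for RVT (79.4 to 80.5), by exact binomial intervals. The share was thus higher in RVC and RVT than in S and RV, as a share of counted UMIs only. These genes resemble each other, and 13 of the 451 runs of 50 bases in the last 500 bases of the *HLA-B* transcript also occur in an *HLA-C* transcript, while none occurs in *HLA-E*. The GENCODE 29 model of *HLA-B* (chromosome 6, 31269491 to 31357188) spans the whole of *HLA-C* apart from its 3′ end (31268749 to 31272130, same strand) and shares 35 exonic bases with it. How the counting placed reads of such alleles is not given in the sources used here, and the split between *HLA-B* and *HLA-C*, above all across the 2 annotations, is uncertain for that reason.

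*B2M*, the invariant light chain that every heavy chain needs to reach the surface, was at 886 CPM for S (878 to 894), 1049 for RV (1039.8 to 1057), 3095 for RVC (3076 to 3114) and 3815 for RVT (3791 to 3839). RV was 1.18-fold above S (1.17 to 1.20), RVC 3.49-fold (3.46 to 3.53) and RVT 4.31-fold (4.26 to 4.35). Centred on genes of like GC content, RVC had a log2 ratio to S of 1.27 in place of 1.80, and RVT one of 1.37 in place of 2.11. *B2M* was also higher in the shallower cells of every library: below the median UMI number its level was 3889 CPM in RVC and 4766 in RVT, and above it 2756 and 3330.1. Among cells with 4000 to 8000 UMIs in each library, RVC had a log2 ratio to S of 1.51 and RVT one of 1.62. In cells below and above the median mitochondrial share *B2M* was at 2989 and 3215 CPM in RVC and at 4159 and 3431 in RVT, against 872 and 901 in S. The part of depth, GC content and mitochondrial share in these ratios was not tested further.

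*TAP1* and *TAP2*, the subunits of the peptide transporter, were both low. *TAP1* was at 12.4 CPM for S (11.5 to 13.3), 14.6 for RV (13.6 to 15.7), 19.5 for RVC (18.0 to 21.0) and 21.1 for RVT (19.3 to 22.9). Its levels rank S, RV, RVC and RVT, with overlapping intervals for the last pair, whose log2 ratio went from 0.11 to -0.19 with TMM scaling. The ratio to S was 1.57 in RVC (1.41 to 1.75) and 1.70 in RVT (1.52 to 1.90). *TAP2* was at 6.09 for S (5.48 to 6.76), 6.51 for RV (5.84 to 7.24), 4.85 for RVC (4.13 to 5.67) and 5.86 for RVT (4.96 to 6.89). The intervals of S, RV and RVT overlapped, but the log2 ratio of RVT to S was -0.05 as summed, -0.57 after TMM scaling and -0.66 after GC centring, so that it depends on the scaling. Of the exonic bases of *TAP2* 32.3% also belong to a second listed gene on the same strand.

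*TAPBP*, the tapasin gene, varied least. It was at 22.9 CPM for S (21.7 to 24.1), 20.6 for RV (19.4 to 21.9), 24.4 for RVC (22.7 to 26.1) and 21.6 for RVT (19.8 to 23.5). The ratio of RVC to S was 1.07 (0.975 to 1.16) and that of RVT to S 0.943 (0.852 to 1.04), both including 1. The end of the *TAPBP* transcript is 59.6% GC, a value that 93.4% of the tested genes do not exceed, and against genes of like GC content it was 2.84-fold above S in RVC and 3.24-fold in RVT. Whether *TAPBP* was level or higher in these libraries thus depends on that correction.

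*PSMB8* and *PSMB9*, catalytic subunits that replace their constitutive counterparts in the immunoproteasome, parted in RVT. *PSMB8* was at 45.6 CPM for S (43.9 to 47.4), 61.2 for RV (59.1 to 63.3), 107 for RVC (104 to 111) and 105 for RVT (101 to 109). Its ratio was 1.34 in RV over S (1.27 to 1.41), 2.35 in RVC over S (2.23 to 2.47) and 2.30 in RVT over S (2.18 to 2.43), although after TMM scaling the last had a log2 ratio of 0.69, under 2-fold.

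*PSMB9* was at 39.6 CPM for S (38.0 to 41.2), 50.8 for RV (48.9 to 52.8), 48.6 for RVC (46.2 to 51.0) and 16.3 for RVT (14.7 to 17.9). RVT was the only one of the 4 libraries below S. It was 2.44-fold lower than S (2.19 to 2.71) and 2.99-fold lower than RVC (2.68 to 3.34), the library with which it shares annotation and whose depth was the nearest. The median RVT and RVC cells still differed, with 2871 and 3959 UMIs and 5.77% and 3.58% mitochondrial UMIs. Under the 10 other ways of scaling or choosing cells, the log2 ratio of RVT to RVC lay between -1.88 and -1.47. *PSMB9* shares 174 of 3072 exonic bases with *PSMB8-AS1* on the same strand and 139 with *PSMB8* on the opposite one.

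Set against the constitutive subunits that they replace, *PSMB8* came to 17.6 UMIs per 100 of *PSMB5* for S (16.9 to 18.3), 25.1 for RV (24.1 to 26.1), 14.4 for RVC (13.9 to 14.9) and 19.1 for RVT (18.3 to 19.9). *PSMB9* came to 14.5 per 100 of *PSMB6* for S (13.8 to 15.1), 17.1 for RV (16.4 to 17.8), 6.90 for RVC (6.56 to 7.26) and 5.26 for RVT (4.75 to 5.81). *PSMB10*, the remaining inducible subunit and no member of the 9, was named after its values were seen: it stood at 12.7 CPM in S and 18.7 in RV, and its log2 ratio to S came to -2.60 with RVC and -2.53 with RVT. RV thus had the highest inducible-to-constitutive ratio for these pairs, and the constitutive genes differed too, with *PSMB5* at 259.5, 244, 746 and 549.7 CPM in S, RV, RVC and RVT and *PSMB6* at 274, 297, 704 and 309.

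With a threshold of 2-fold on the ratio, the counts were as follows. In RV over S, 0 of the 8 genes at 10 CPM were higher and 0 lower, against 1.89% and 1.26% of all tested genes, so that none was likely to be found at such shares. In RVC over S, 3 were higher (*HLA-B*, *B2M*, *PSMB8*) and 0 lower, against 22.5% and 23.3% of all tested genes. In RVT over S the same 3 genes were higher and *PSMB9* was lower, against 28.6% and 24.3%. In RVT over RVC, 0 were higher and 1 was lower (*PSMB9*), against 15.1% and 11.8%. These shares depend on the scaling. After TMM scaling 15.5% of all tested genes were higher and 34.4% lower in RVT over S, and 7.97% and 18.5% in RVT over RVC. With 22.5% of all genes past 2-fold upward, 3 of 8 is not a count that sets the group apart, and no claim about the group is made from it.

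The median log2 ratio of the 8 genes was 0.24 in RV over S, 0.47 in RVC over S, 0.73 in RVT over S and 0.21 in RVT over RVC. Over all tested genes it was 0.02, 0.16, 0.21 and 0.15. TMM scaling moved the medians of all genes to -0.02, -0.09, -0.34 and -0.16, and those of the 8 genes to 0.20, 0.26, 0.21 and -0.10, so that RVT over RVC changed its sign with the scaling. Centred on GC content, where the median of all genes is 0, the medians of the 8 genes were 0.23, 0.96, 1.05 and 0.14. In RV over S, 6 of the 8 genes had a ratio above 1, but by at most 1.35-fold. The median ratio of all tested genes was also above 1 there (0.02 on the log2 scale), and no claim about the group is made from this count. The histogram of all ratios shows how much wider the spread of genes was in the comparisons of RVC and RVT with S.

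**Figure D2:**
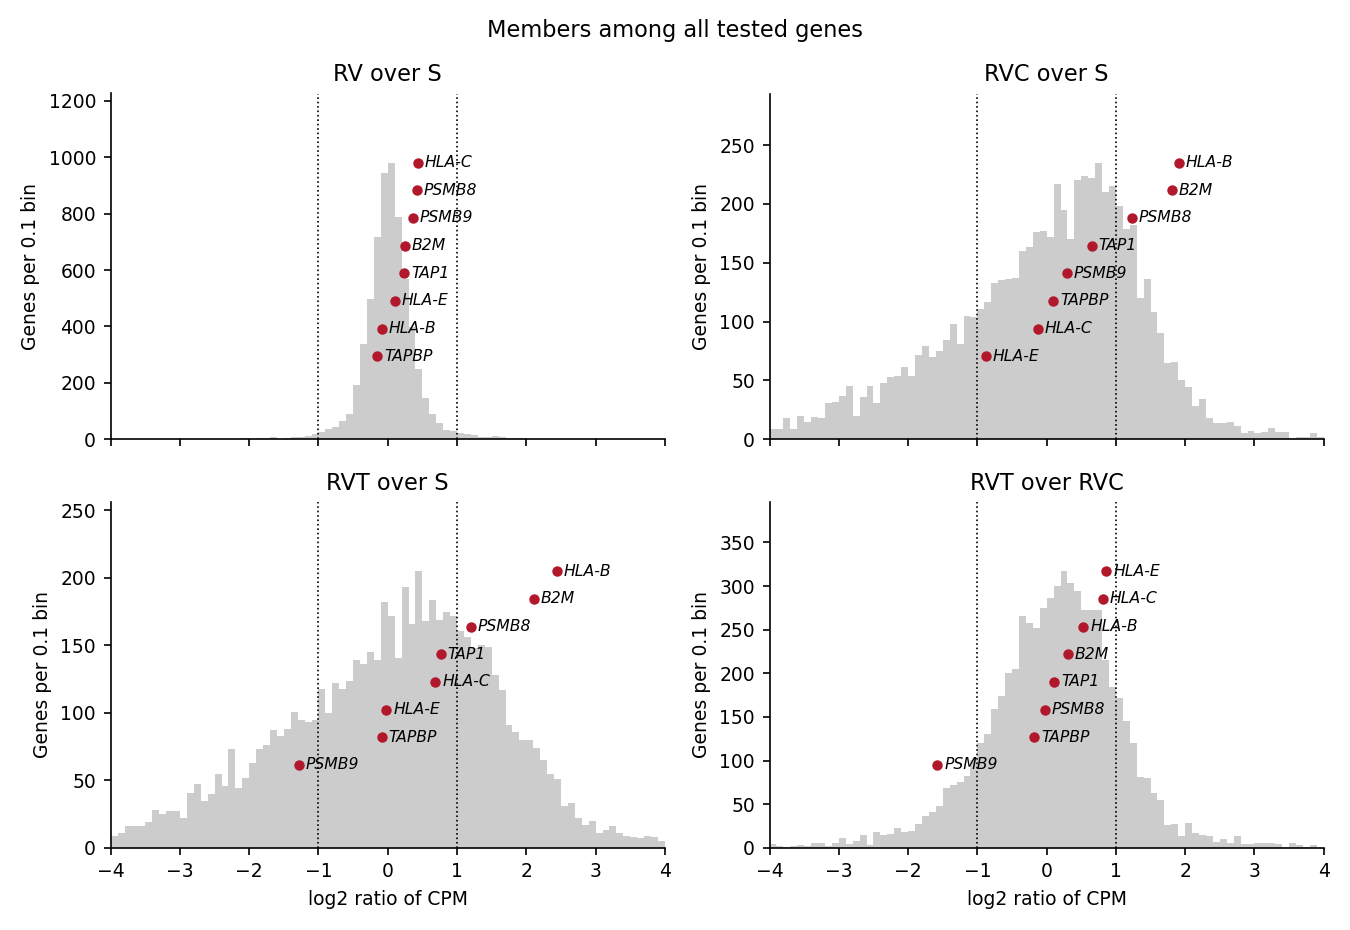
Log2 ratios of CPM for all tested genes (grey, genes per bin of 0.1) and for the 8 class I genes that passed the filter (red points, spread vertically only for legibility) in 4 comparisons, with dotted lines at 2-fold. In RV over S all 8 points lie between the lines, whereas *HLA-B* and *B2M* lie in the upper tail of RVC and RVT over S, and *PSMB9* lies past the lower line in RVT over S and RVT over RVC.

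The same genes were then followed cell by cell. Since detection rises with depth, each cell was thinned at random to 1500 UMIs, which left out 397 RVC and 845 RVT cells and none of S or RV. Brackets after shares are exact binomial 95% intervals for counting error. All nucleated cells use class I genes, so no cells were at hand to give the share that free RNA alone would produce.

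*B2M* was found in 72.5% of thinned cells for S (71.3 to 73.6), 78.2% for RV (77.0 to 79.5), 97.7% for RVC (97.3 to 98.0) and 98.1% for RVT (97.8 to 98.4). Without thinning it was found in 99.5% to 99.9% of cells in all 4 libraries. *HLA-B* was found in 16.2% of thinned cells for S (15.3 to 17.1), 14.2% for RV (13.2 to 15.3), 46.0% for RVC (44.8 to 47.1) and 59.4% for RVT (58.3 to 60.5). With another seed of the thinning these shares were 15.3% in S and 15.6% in RV, so that the order of S and RV depends on the draw.

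*HLA-C* was found in 10.9%, 14.2%, 9.01% and 16.1% of thinned cells of S, RV, RVC and RVT, and *HLA-E* in 6.06%, 7.06%, 3.29% and 6.11%. *PSMB8* was found in 6.09%, 8.74%, 14.8% and 14.2%, and *PSMB9* in 5.56%, 7.13%, 6.99% and 2.47%. The transporter and tapasin genes stayed under 3.6% in all libraries. For 7 of the genes the shares lay close to those that an even Poisson spread of the same UMIs would give, and for *HLA-B* and *B2M* below them in each library, as the plot of shares shows.

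**Figure D3:**
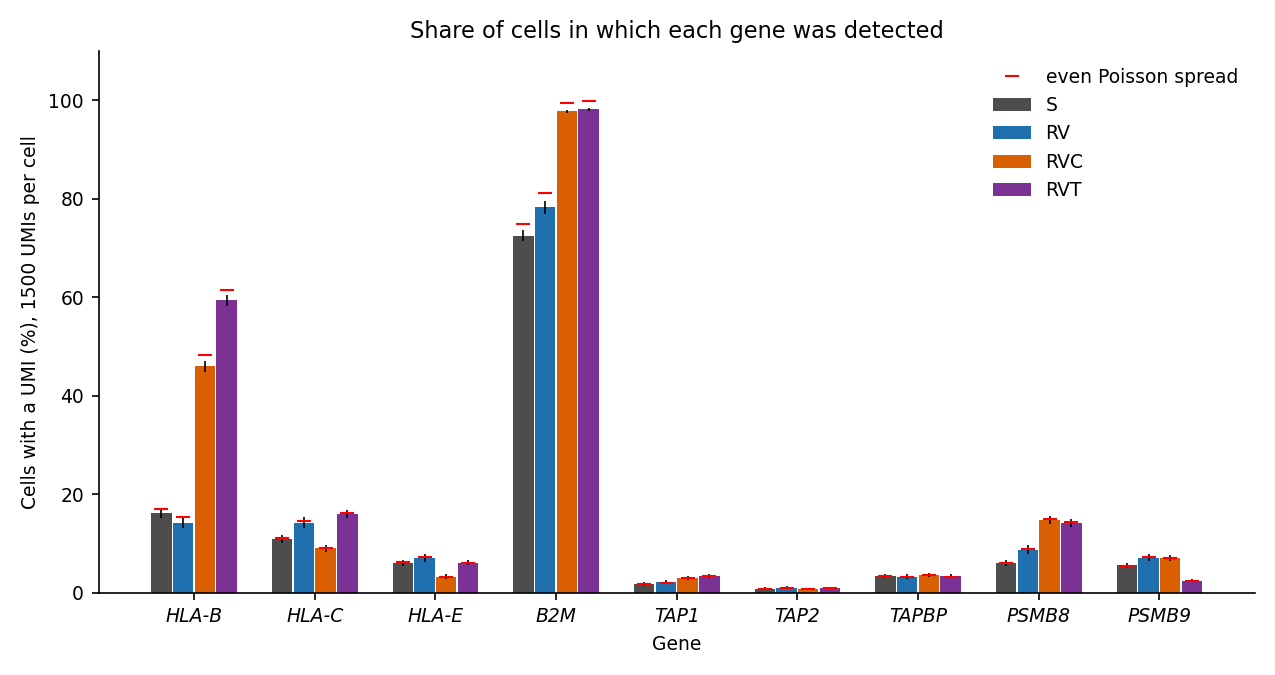
Share of cells (%) with at least 1 UMI of each gene after every cell was thinned to 1500 UMIs, in S, RV, RVC and RVT, with exact 95% binomial intervals (black) and the share that an even Poisson spread of the same mean would give (red). *HLA-B* and *B2M* bars are tallest in RVC and RVT and end below the red marks, and most other bars end at them.

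No UMI of any of the 9 genes was held by 17.4% of the thinned cells for S (16.4 to 18.3), 12.8% for RV (11.8 to 13.9), 1.01% for RVC (0.793 to 1.27) and 0.632% for RVT (0.466 to 0.837). A UMI of *B2M* together with one of a heavy chain was found in 21.3%, 24.4%, 50.9% and 66.6% of cells, which is 1.00 to 1.03 times the share that independent detection would give. In RVC and RVT *B2M* was found in 97.7% and 98.1% of cells, so that this factor could hardly differ from 1 there. It says nothing on joint detection in those libraries. *HLA-B* and *HLA-C* were found together in 2.73% of S cells (2.34 to 3.16) and 2.75% of RV cells (2.28 to 3.30), 1.55 and 1.36 times the share for independent detection. In RVC and RVT this factor was 1.15 and 1.01. For *PSMB8* with *PSMB9* it was 0.886, 1.11, 1.05 and 1.61 in S, RV, RVC and RVT, where RVT had both in 0.566% of cells (0.410 to 0.761).

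The spread between cells was given as the variance of thinned UMIs over their mean, which is near 1 for counting noise alone. *B2M* had values of 1.18 and 1.22 in S and RV, and of 1.83 and 2.43 in RVC and RVT. The median over the 164 to 213 genes with a mean of at least 1 thinned UMI was 1.14, 1.18, 1.28 and 1.21. In S and RV 40.3% and 42.9% of these genes had a value at least as large as *B2M*, in RVC 16.9% and in RVT 4.27%. Since the mean of *B2M* also differed, these ranks are not free of its level.

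The ratio of variance to mean rises with the mean, and the part of the spread beyond counting noise, as a coefficient of variation, was 0.357, 0.366, 0.406 and 0.491 for the libraries in the same order. In RVT the cells at the 10th, 50th and 90th percentile held 2, 5 and 11 thinned *B2M* UMIs, and the highest held 36. In RVC these percentiles were 2, 5 and 9 UMIs with a maximum of 24. The distribution in RVT was thus stretched upward from the same median, as the plot of UMIs per cell shows. Thinning does not undo the difference of *B2M* between cells below and above the median UMI number. Their levels were 4766 and 3330 CPM in RVT, 3889 and 2756 in RVC and 980 and 831 in S. The part of depth and mitochondrial share in the spread was not tested.

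**Figure D4:**
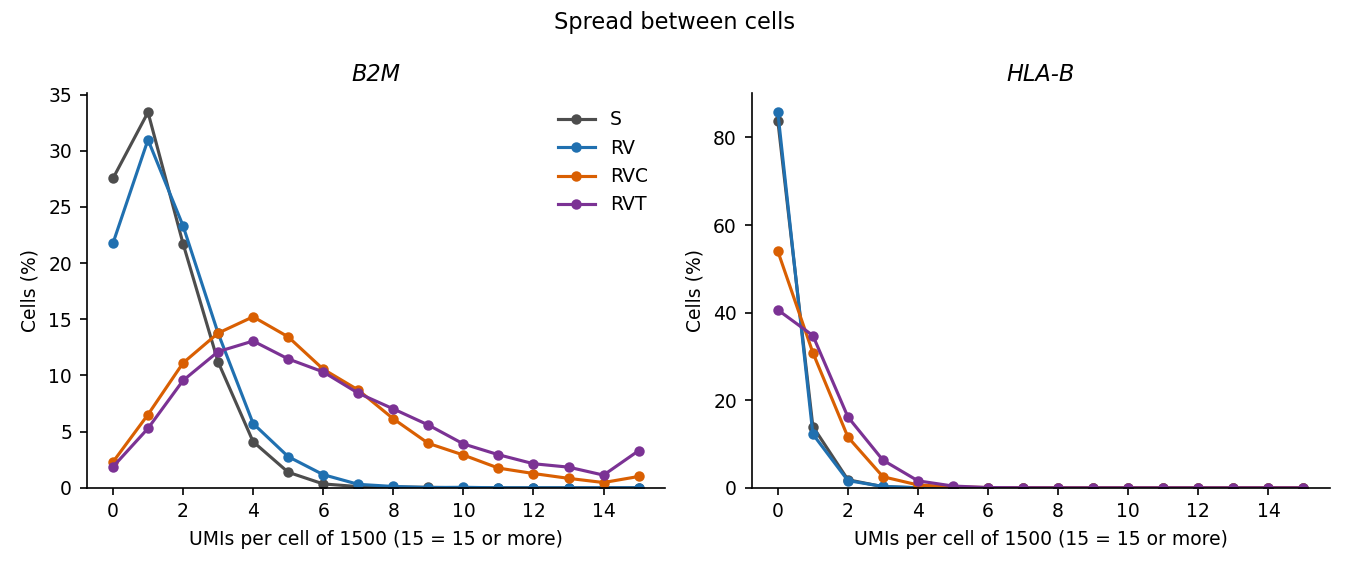
Percent of cells with each number of *B2M* (left) and *HLA-B* (right) UMIs after thinning to 1500 UMIs per cell, in S, RV, RVC and RVT, with 15 standing for 15 or more. For *B2M* the S and RV curves peak at 1 UMI and those of RVC and RVT at 4, with the longest tail in RVT, and for *HLA-B* all curves are highest at 0.

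For *HLA-B* the variance over the mean was 1.14, 1.16, 1.16 and 1.11 in S, RV, RVC and RVT. Thinning to 1000 UMIs gave 1.01, 1.08, 1.11 and 1.07, and another seed at 1500 UMIs gave 1.10, 1.08, 1.17 and 1.09, so that no order of the libraries is drawn from these values. For the other genes the variance over the mean lay between 0.979 and 1.05 in all 4 libraries, at which a spread beyond counting noise was hardly detectable at this depth.

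Pairs of the 9 genes hardly rose and fell together from cell to cell. Across thinned cells the 36 pairwise Pearson correlations per library had medians of 0.0026 to 0.014, and the highest was 0.127, for *HLA-B* and *B2M* in the 7226 RVC cells. Cells of 1 library share its depth, its free RNA and a total of 1500 UMIs, and such sparse counts keep correlations low. Against the summed log counts of the 9 genes, the genes most alike over the 4 libraries, among 2341 compared, were *CD63*, *MYL6*, *MALAT1*, *S100A6*, *TIMP1*, *SPARC*, *NEAT1*, *LGALS1* and *MGST3*. Their mean correlations were 0.126 for *CD63* down to 0.088 for *MGST3*, with a median of 0.006 over all genes, and they are given as a ranking only. The mean hides differences between libraries. In S, RV, RVC and RVT r was 0.050, 0.053, 0.129 and 0.255 for *MYL6* and 0.020, 0.095, 0.182 and 0.188 for *MALAT1*. For *CD63* it was 0.104, 0.094, 0.157 and 0.151.

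*CD74*, the invariant chain that guides MHC class II molecules, was the gene most like the 9 between S cells (r = 0.159 over 6334 cells), and cells were split by it after that was seen. A *CD74* UMI was found in 53.0% of thinned S cells, 25.3% of RV, 19.7% of RVC and 49.7% of RVT cells. Since *CD74* was picked for its likeness to the 9 genes in these S cells, the S values of the split restate that choice, and those of the other libraries are a description. Over RV cells r was 0.128, over RVC cells 0.051 and over RVT cells -0.005.

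*HLA-B* was at 167 CPM in S cells with a *CD74* UMI and 77.7 in S cells without. In RV the levels were 179.8 and 87.2, in RVC 485 and 429, and in RVT 636 and 632. *HLA-C* was at 95.4 and 60.6 in S, at 115 and 101 in RV, at 71.4 and 61.3 in RVC and at 123 and 113 in RVT. No difference between cultures is drawn from these values, since each culture is 1 library.

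**Figure D5:**
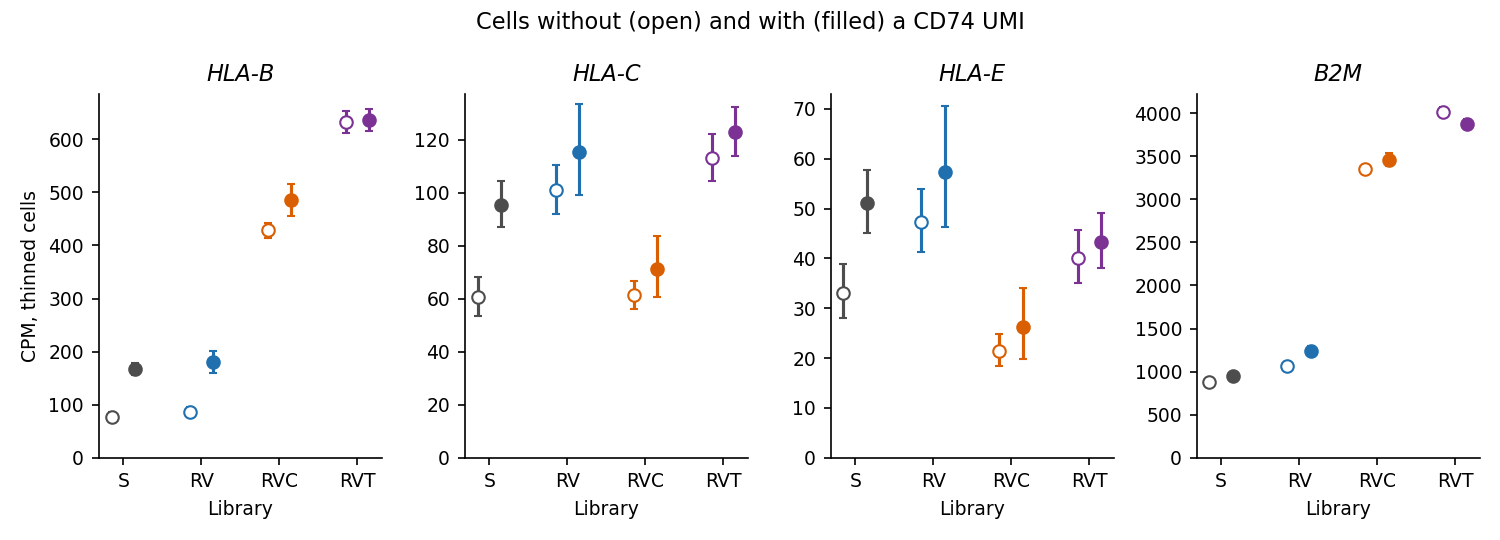
Level (CPM, thinned cells) of *HLA-B*, *HLA-C*, *HLA-E* and *B2M* in cells without (open) and with (filled) a *CD74* UMI in S, RV, RVC and RVT, with exact 95% Poisson intervals. The *HLA-B* points stand apart in S (77.7 and 167) and RV (87.2 and 179.8) and coincide within their intervals in RVT (632 and 636).

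Other steps of the pathway were looked up in lists of genes. Of 12 peptide loading and trimming genes 9 reached 10 CPM. In RV over S 0 of these were past 2-fold, against 1.89% of all tested genes higher and 1.26% lower. In RVC over S, RVT over S and RVT over RVC 0 were lower, against 23.3%, 24.3% and 11.8% of all tested genes. In RVC over S 2 were higher, against 22.5%, in RVT over S 4, against 28.6%, and in RVT over RVC 3, against 15.1%. Those 3 were *CANX*, the chaperone that folds new heavy chains, at 82.4, 60.2, 95.6 and 232 CPM in S, RV, RVC and RVT, *HSPA5*, the main chaperone of the endoplasmic reticulum, at 65.3, 51.6, 45.1 and 113, and *LNPEP*, an aminopeptidase of endosomes, at 7.95, 6.74, 18.5 and 50.3. Passing 2-fold in RVT over RVC is what named them, so that their high level in RVT is part of the choice. *LNPEP* also reached a mean of 10 CPM only through RVC and RVT, so that its being counted as higher over S is part of the choice too.

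Among 27 genes of class I transcription and interferon signalling 17 were tested, of which 0 were higher and 1 lower in RV over S, 4 higher and 4 lower in RVC over S, 7 higher and 4 lower in RVT over S, and 5 higher and 2 lower in RVT over RVC. Of all tested genes 1.89% were higher and 1.26% lower in RV over S, 22.5% and 23.3% in RVC over S, 28.6% and 24.3% in RVT over S, and 15.1% and 11.8% in RVT over RVC. *STAT2*, whose product carries interferon signals to the nucleus, was at 4.56, 5.44, 13.7 and 54.5 CPM in S, RV, RVC and RVT. *STAT3*, a transcription factor of cytokine signalling, was at 24.4, 19.4, 29.7 and 110.2, and the kinase gene *JAK1* at 18.1, 17.8, 16.4 and 51.8. They were named for passing 2-fold in RVT over RVC, so that their high level in RVT is part of the choice. *STAT2* also reached a mean of 10 CPM only through RVC and RVT, so that its being counted as higher over S is part of the choice too. The same holds for other listed genes under 10 CPM in S that were counted as higher over S.

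*IRF1*, a transcription factor that binds the interferon-response core, was at 10.6 CPM for S (9.79 to 11.5), 14.6 for RV (13.6 to 15.7), 19.8 for RVC (18.3 to 21.4) and 16.5 for RVT (14.9 to 18.1). *NLRC5*, the transactivator of class I genes, was at 2.10 for S (1.74 to 2.50), 3.15 for RV (2.69 to 3.67), 4.00 for RVC (3.35 to 4.75) and 4.05 for RVT (3.31 to 4.92). Both were lowest in S. *NFKB1*, an NF-kB subunit gene, went the other way, at 73.6, 28.7, 21.7 and 20.9 in S, RV, RVC and RVT, and was the 1 gene of the 17 tested that was past 2-fold in RV over S. *RFX5* and *RFXANK*, whose products bind class I and class II promoters in one complex, parted, at 19.5, 15.7, 13.0 and 33.5 and at 59.4, 60.3, 29.2 and 12.1.

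The 33 interferon-stimulated genes did not move together. Of 15 tested, 0 were past 2-fold in RV over S, 6 were higher and 3 lower in RVC over S, 6 higher and 2 lower in RVT over S, and 4 higher and 0 lower in RVT over RVC, where the shares of all tested genes were those just given. *ISG15*, a ubiquitin-like modifier, was at 27.0, 33.3, 4.73 and 12.4 CPM in S, RV, RVC and RVT, and *IFI6*, a mitochondrial survival factor, at 11.3, 9.60, 4.40 and 19.7. *PARP9* and *DTX3L*, which form a complex that marks proteins with ubiquitin, were at 2.32, 2.62, 11.5 and 24.1 and at 4.79, 5.40, 9.22 and 26.9. *ISG15* was lower in RVC and RVT than in S, and *PARP9* and *DTX3L* were higher. That pair reached a mean of 10 CPM only through the libraries in which it was high, so that its direction is part of the choice. All 4 genes were named for passing 2-fold in RVT over RVC, which is part of the choice too. No direction of the list is drawn from them. Other listed genes counted as higher over S were under 10 CPM in S and reached that mean only through RVC and RVT, so that the same limit holds for them.

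Of 10 class II genes 5 were tested, and they had no common order of libraries. *CD74* was at 808, 257, 162 and 516 CPM in S, RV, RVC and RVT, and *HLA-DRA* at 111, 27.0, 13.0 and 84.7. *HLA-DPA1* was at 93.2, 50.4, 56.6 and 47.9, *HLA-DPB1* at 38.4, 28.3, 47.9 and 23.5, and *HLA-DMA*, which helps to load class II molecules, at 23.3, 12.4, 33.6 and 58.5. In RV over S 0 of the 5 were higher and 2 lower, against 1.89% and 1.26% of all tested genes, and in RVC over S 0 were higher and 2 lower, against 22.5% and 23.3%. In RVT over S 1 was higher and 0 lower, against 28.6% and 24.3%, and in RVT over RVC 2 were higher and 1 lower, against 15.1% and 11.8%. Of 11 stress ligands and class I-like molecules 3 were tested, of which 0 were past 2-fold in RV over S, 1 was higher in RVC over S, 2 in RVT over S and 1 in RVT over RVC, with 0 lower in each and the same shares of all tested genes. *MR1*, a class I-like molecule for small metabolites, was at 1.40, 1.91, 7.46 and 31.8 CPM, *MICA*, a ligand of the NKG2D receptor, at 10.5, 14.5, 19.9 and 27.1, and *PROCR*, the protein C receptor, at 30.01, 43.6, 18.7 and 35.0. *MR1* is among the genes counted as higher in each of the last 3 comparisons. It reached a mean of 10 CPM only through RVT, so that its being counted as higher in RVT is part of the choice.

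Cells with fibroblast marker UMIs were the 2845 of 7623 in RVC and 979 of 8445 in RVT, against 150 in S and 114 in RV. Without them the log2 ratio to S of *HLA-B* was 1.78 in RVC and 2.42 in RVT, that of *B2M* 1.76 and 2.10, and that of *PSMB9* in RVT over RVC -1.53. *HLA-E* was then past 2-fold in RVC over S, at -1.01. The higher *HLA-B* and *B2M* were also seen in cells without such a UMI. At 167 CPM of these markers and 3959 UMIs in the median RVC cell, a cell that expresses them can hold no such UMI. The split therefore does not separate kinds of cells, and the part of the cell mix was not tested.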

How the data were processed

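Single-cell libraries of the A375 cultures S, RV, RVC and RVT (1 each) were analysed. The authors deposited raw whole-number UMI counts (genes by cell barcodes), made per the labels with the 10x Chromium v2 kit, bcl2fastq 2.20.0.422 and Cell Ranger on GRCh38. The annotations and filters used before deposit are not given in the sources used here. The barcodes numbered 6695, 4328, 9266 and 10427. The study's stated cell numbers match the RVC and RVT barcodes and are lower than those of S and RV.

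Barcodes with at least 500 genes and at most 20% mitochondrial UMIs were kept. The doublet tool scrublet (scanpy 1.11.5) marked 5, 1, 1 and 0 barcodes by its own threshold, too few to have worked, so the highest scores were removed at 0.8% per 1000 barcodes (359, 150, 687 and 870). UMIs were summed to 58611860, 52389992, 32968217 and 25407545. A count of 0 allows up to 3 UMIs, which is 0.0512, 0.0573, 0.0910 and 0.118 CPM. Cells were thinned to 1500 UMIs with seed 1. Python 3.11.15, scipy 1.17.1, R 4.3.3 and edgeR 4.0.16 (TMM only) were used, and ratios and intervals were tested on simulated sums. Names and coordinates came from GENCODE 29.

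With 1 library per condition no test between conditions was made. All 9 genes are named. List genes are named where past 2-fold in RV over S or RVT over RVC at a mean of 10 CPM, at most 6 per list, with *NLRC5* and *IRF1* in any case, and *PSMB10*, *PSMB5* and the remaining tested class II and class I-like genes were named after their values were seen. Also named are the 10 genes most like the members between cells, of which 1 is not reported here. The members and lists were chosen with earlier results of these data known. Alternatives were other cell filters, scalings, weights, thresholds and thinning depths, and GC centring. Cells of 4000 to 8000 UMIs, cells without fibroblast marker UMIs and the splits by *CD74* and depth were added after seeing the data.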

Additional observations from a re-analysis of the deposited data

How the results depend on the processing

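No paired analysis was possible because each condition has 1 library. The number of genes lower in RVC over S rose from 0 to 1 (*HLA-E*) with TMM scaling, with library sizes free of ribosomal protein and mitochondrial genes, at a threshold of 1.5-fold and without cells holding fibroblast marker UMIs, where 27.7%, 25.4%, 31.2% and 23.6% of all tested genes were lower. At 1.5-fold, 5 genes were higher in RVT over S in place of 3 (39.6% of all tested genes), and 2 in RVT over RVC in place of 0 (30.3%). Without fibroblast marker UMIs 1 gene (*HLA-E*, at a log2 ratio of 1.00) was higher in RVT over RVC, against 16.3%. The other 89 recomputed counts stayed within 1.5 times. For single genes no called ratio changed its sign. *PSMB8* in RVT over S fell under 2-fold with TMM scaling only, and *TAPBP* passed 2-fold over S with GC centring only. Of 36 member ratios, 11 changed sign under at least 1 alternative, all of them within 1.23-fold of level before, and 5 of these were in RVT over RVC (*B2M*, *TAP1*, *TAP2*, *TAPBP*, *PSMB8*). For example, that of *B2M* in RVT over RVC was 0.30 on the log2 scale and -0.0014 with TMM scaling, and that of *HLA-B* in RV over S -0.09, and 0.07 in cells of 4000 to 8000 UMIs. The cause was not tested in any of these. Depth limits *TAP2*, which has 149 to 357 UMIs per library, and shares of cells, which all moved without thinning. The intervals leave out the spread between cultures.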
